A study of Mus musculus with 4 samples.

Results

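The mitotic cell cycle and mitotic exit genes described here are 40 mouse genes, taken from a list by function and not by any measured value: cyclins, cyclin-dependent kinases and their inhibitors, the Cdc25 phosphatases and Wee1, the coactivators of the anaphase-promoting complex, mitotic kinases, checkpoint and spindle genes, the retinoblastoma family with E2f1, and the licensing factors Cdc6 and Cdt1. The list was nevertheless chosen with earlier results of these data known. All 40 genes were found among the 21883 protein-coding genes measured. The locus of a gene was its body plus 50 kb on each side in mm10, the mouse genome build of the deposited files, and what was measured there was the length covered by peaks of accessible chromatin, in bp. Of the 40 loci, those of Cdc6 and Top2a, whose genes lie 69.0 kb apart on chromosome 11, overlapped and so shared some peaks.

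The 4 libraries were single-nucleus ATAC libraries, in which a transposase marks open DNA, from the 10x Multiome assay. The cells were embryonic stem cells from mouse blastocysts, either wild type or lacking both Cdc14a and Cdc14b ("Cdc14ab KO"). Day 0 cells were in medium with LIF, the cytokine that keeps stem cells undifferentiated. Day 5 cells had followed a neural differentiation protocol in N2B27 medium with EGF and FGF2. Both genotypes had been grown over feeder cells, which were removed on gelatin, and all 4 libraries carry the label clone 3. By label each genotype is represented by 1 clone, and a difference between clones and an effect of the knockout cannot be told apart. Since every group has 1 library, the differences below come without replicates and without p-values.

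As background, cyclin B bound to CDK1 drives cells into mitosis, where Cdc25 phosphatases switch the kinase on and Wee1 holds it off. The anaphase-promoting complex, first with Cdc20 and then with Cdh1 (the product of Fzr1), marks securin and cyclin B for destruction, so that sister chromatids separate and the cell leaves mitosis. Cdc14 phosphatases remove phosphates that cyclin-dependent kinases added, and in budding yeast this step is needed for mitotic exit. Mouse embryonic stem cells divide quickly with a short G1 phase, and G1 lengthens as they differentiate.

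The peak lists held 198860 peaks (wild type, day 0), 222257 (knockout, day 0), 189571 (wild type, day 5) and 227878 (knockout, day 5), covering 168.8, 190.3, 162.5 and 197.3 Mb. Values below follow this order of libraries unless stated otherwise. The lists hold positions only, so the read depth is unknown, and each list pools all nuclei of its library: a change in the mix of cells and a change within each cell cannot be told apart. Wild type at day 5 stood apart from the other libraries: 3 of 4 Y-linked marker genes (Eif2s3y, Uty, Ddx3y, Kdm5d) had a promoter peak there, against 0 of 4 in each of the others. Those 3 genes had no covered base within 1 kb of the start in wild type at day 0 although both libraries carry the same clone label, so for the wild-type time course a difference between the cells of its 2 libraries and a change over time cannot be told apart. Comparisons that rest on the day 5 library have no second one to set beside it. Promoter peaks were found at 8 of 8 stem cell markers and 7 of 7 neural progenitor markers in every library, with 192.6, 214.5, 144.8 and 197.4 kb covered over the stem cell marker loci and 97.4, 95.7, 98.8 and 95.0 kb over the neural ones. Feeder fibroblast markers had promoter peaks at 6, 7, 8 and 8 of 8 genes (90.9, 115.2, 106.9 and 111.8 kb), with none at Lum in either day 0 library, and endoderm markers at 3, 4, 4 and 5 of 5. The part of such cells in the results was not tested. The peaks do not check the genotype: both Cdc14a and Cdc14b kept promoter peaks in all libraries, and the Cdc14a locus held 25154, 34121, 19643 and 35049 covered bp and the Cdc14b locus 21380, 30420, 21802 and 31563.

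The promoters of 6 late cell cycle genes are shown first, as examples of the DNA under the promoter peaks described next. Genes that act in mitosis often carry CCAAT boxes, bound by NF-Y, and a CHR element (cell cycle genes homology region, TTTGAA or TTCGAA), bound by the DREAM and MuvB complexes. RefSeq promoter sequences (GRCm38.p6, 250 bases before to 50 after a transcript start) matched 32 of the 40 members. The 6 printed here, each with both motifs, are Ccnb2 (chr9:70421505-70421804, minus strand), Cdk1 (chr10:69352863-69353162, minus), Cdc20 (chr4:118437294-118437593, minus), Plk1 (chr7:122159185-122159484, plus), Aurka (chr2:172370521-172370820, minus) and Bub1 (chr2:127831810-127832109, minus). They are written 5′ to 3′ with the transcript start at base 251. Capitals mark the CCAAT box (also read as ATTGG on the other strand), the CHR element in either form and, in Cdk1, the E2F letters TTTCGCGC.
Ccnb2: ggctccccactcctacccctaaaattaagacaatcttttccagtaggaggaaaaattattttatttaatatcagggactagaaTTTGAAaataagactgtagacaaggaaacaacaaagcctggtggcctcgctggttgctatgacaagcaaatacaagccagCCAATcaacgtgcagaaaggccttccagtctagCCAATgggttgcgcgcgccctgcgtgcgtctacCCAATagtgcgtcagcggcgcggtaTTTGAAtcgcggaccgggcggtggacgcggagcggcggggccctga
Cdk1: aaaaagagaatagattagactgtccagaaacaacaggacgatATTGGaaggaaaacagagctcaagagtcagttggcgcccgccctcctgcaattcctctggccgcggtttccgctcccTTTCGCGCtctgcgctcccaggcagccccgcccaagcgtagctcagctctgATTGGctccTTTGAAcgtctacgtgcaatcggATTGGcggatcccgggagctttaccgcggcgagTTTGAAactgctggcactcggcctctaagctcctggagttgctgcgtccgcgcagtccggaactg
Cdc20: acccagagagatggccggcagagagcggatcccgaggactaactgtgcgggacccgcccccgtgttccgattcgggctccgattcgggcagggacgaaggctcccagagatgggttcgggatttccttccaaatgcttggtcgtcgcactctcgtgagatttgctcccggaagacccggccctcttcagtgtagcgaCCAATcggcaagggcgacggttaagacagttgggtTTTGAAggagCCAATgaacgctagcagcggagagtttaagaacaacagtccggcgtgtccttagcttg
Plk1: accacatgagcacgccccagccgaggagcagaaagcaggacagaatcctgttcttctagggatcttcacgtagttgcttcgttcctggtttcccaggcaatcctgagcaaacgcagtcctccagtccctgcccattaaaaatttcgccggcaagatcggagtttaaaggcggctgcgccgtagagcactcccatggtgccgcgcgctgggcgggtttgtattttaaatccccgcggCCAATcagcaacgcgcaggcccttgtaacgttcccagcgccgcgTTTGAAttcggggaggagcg
Aurka: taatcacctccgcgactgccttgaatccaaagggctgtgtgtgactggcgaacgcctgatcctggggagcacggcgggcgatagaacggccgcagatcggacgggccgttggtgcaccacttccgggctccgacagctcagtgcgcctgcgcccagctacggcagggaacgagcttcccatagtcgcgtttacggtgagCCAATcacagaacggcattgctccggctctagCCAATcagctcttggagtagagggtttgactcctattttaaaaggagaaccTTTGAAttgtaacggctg
Bub1: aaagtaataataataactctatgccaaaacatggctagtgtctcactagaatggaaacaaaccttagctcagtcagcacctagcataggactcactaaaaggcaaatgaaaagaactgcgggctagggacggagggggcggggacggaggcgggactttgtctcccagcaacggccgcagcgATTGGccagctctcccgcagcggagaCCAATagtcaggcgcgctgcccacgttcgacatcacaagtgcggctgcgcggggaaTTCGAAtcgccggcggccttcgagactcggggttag

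In Ccnb2, which encodes a mitotic cyclin, 3 CCAAT boxes began 87, 54 and 21 bases before the start and a TTTGAA began 4 bases after it. Cdk1, the mitotic kinase itself, held 3 ATTGG matches, 2 TTTGAA matches and, 131 bases before the start, an E2F match. Cdc20 held CCAAT on either side of its TTTGAA. Plk1 and Aurka, both mitotic kinases, had TTTGAA 30 and 32 bases after the start, and Bub1, a checkpoint kinase, had the TTCGAA form 14 bases after it. All 300 bases of each of these windows lay inside peaks in all 4 libraries, as did 31 of the 37 member windows. The same share over the windows of all genes is not given. The window of Cdk6 had 0 of 300 bases covered in every library, and that of E2f1 had 109, 110, 173 and 142.

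Over both strands, CCAAT was present in 21 of the 32 members (65.6%), against 38.2% of 21262 protein-coding promoters of the same length, and TTTGAA or TTCGAA in 14 (43.8%), against 17.6%. Both motifs together were found in 13 members (40.6%), against 7.11% of promoters: Ccnb2, Cdk1, Cdc25b, Cdc20, Plk1, Aurka, Bub1, Bub1b, Espl1, Kif11, Top2a, Prc1 and Kif23. Of the G1 cyclins only Ccne1 and Ccnd3, and of the retinoblastoma family only Rbl1 and Rbl2, had a promoter sequence to search. None of these is among the 13. Several mitotic members with a searched sequence are not among them either: Ccnb1 and Fzr1 held CCAAT without a CHR element, and Mad2l1 and Pttg1 held neither. The E2F letters TTTGGCGC, TTTCGCGC or TTCCCGCC were present in 4 members (12.5%), Cdc25a, Cdk1, Cdt1 and Rbl1, against 3.84% of promoters. GGCGG or CGCGG, short GC-rich letters of the cell cycle dependent element, was present in 31 members (96.9%), against 64.4%. The member promoters were richer in G and C (median 62.0%, against 56.3%) and held more CpG pairs (median 24, against 13), which short GC-rich letters follow. Members with several annotated starts were counted once where any of their 37 windows matched, whereas the shares of all promoters count single windows. By single windows, 22 of the 37 held CCAAT, 15 TTTGAA or TTCGAA and 14 both. The E2F letters were in 4 and GGCGG or CGCGG in 35.

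All 40 members had a promoter peak, meaning any covered base within 1 kb of an annotated transcript start, in all 4 libraries (100%, exact 95% interval 91.2 to 100, counting error only). Over all protein-coding genes the share with a promoter peak was 73.6, 74.6, 73.4 and 75.2% in the 4 libraries, and 15302 of 21883 genes (69.9%) had one in all 4. Of the 17158 genes with a promoter peak in any library, these 15302 made up 89.2%. For Ccna2, Ccne2, Ccnd1, Ccnd2, Cdc25c, Wee1, Aurkb and Rb1, which were not matched to a promoter sequence, the more accessible gene end stood in for the start. By this measure no member gained or lost its promoter peak in any comparison, although at Ccne2 and Ccnd2 the peak at the gene end itself was missing in 1 library and another peak within 1 kb was counted. Among all genes, a promoter peak was in the knockout alone at 2.20% and in the wild type alone at 1.27% at day 0, and at 3.33 and 1.54% at day 5. Between days, it was at day 5 alone at 2.44% and at day 0 alone at 2.72% of genes in the wild type, and at 2.49 and 1.90% in the knockout.

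The promoter peaks kept nearly the same borders. Both edges lay within 100 bp over the 4 libraries in 33 of 40 members and within 50 bp in 24, and the median spread of the start edge was 38.5 bp for peaks with a median width of 881.5 bp. Edge spreads of other genes are not given, so whether these borders differ from those of promoter peaks in general is not known. At Cdc6, an ATPase that loads the replicative helicase, covered bp in the promoter window were 892, 894, 894 and 894. At Ccnb2 they were 922, 916, 921 and 919. At Plk1 they were 884, 885, 887 and 891. These promoters are among the members with the smallest ranges over genotype and day (2, 6 and 7 bp). In the 32 members with a known strand the peaks reached a median of 527, 526, 503 and 520 bp upstream of the start and 363, 362, 388 and 377 bp downstream.

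A few promoters changed their extent or lost a peak. Ccne2, a cyclin that activates CDK2 at the start of S phase, had 973, 953, 395 and 842 covered bp, the lowest in wild type at day 5. There the region at the gene end (chr4:11190281-11190937) had no peak. Ccnd2, a D-type cyclin of G1, had 872, 1127, 1037 and 246, the lowest in knockout at day 5. There the region at the gene end (chr6:127152143-127153037) had no peak. Wee1, the kinase that inhibits CDK1, had 1203, 1244, 891 and 898, and both day 0 libraries were above both day 5 libraries. Cdkn1a, which encodes the CDK inhibitor p21, went the other way, with 900, 893, 1251 and 1220. Rb1, the retinoblastoma gene, had 1158, 834, 887 and 866, the highest in wild type at day 0. The remaining promoters stayed between 479 bp (Ccna2, cyclin A2) and 1321 bp (Cdkn2c, which encodes the CDK4 and CDK6 inhibitor p18).

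**Figure D1:**
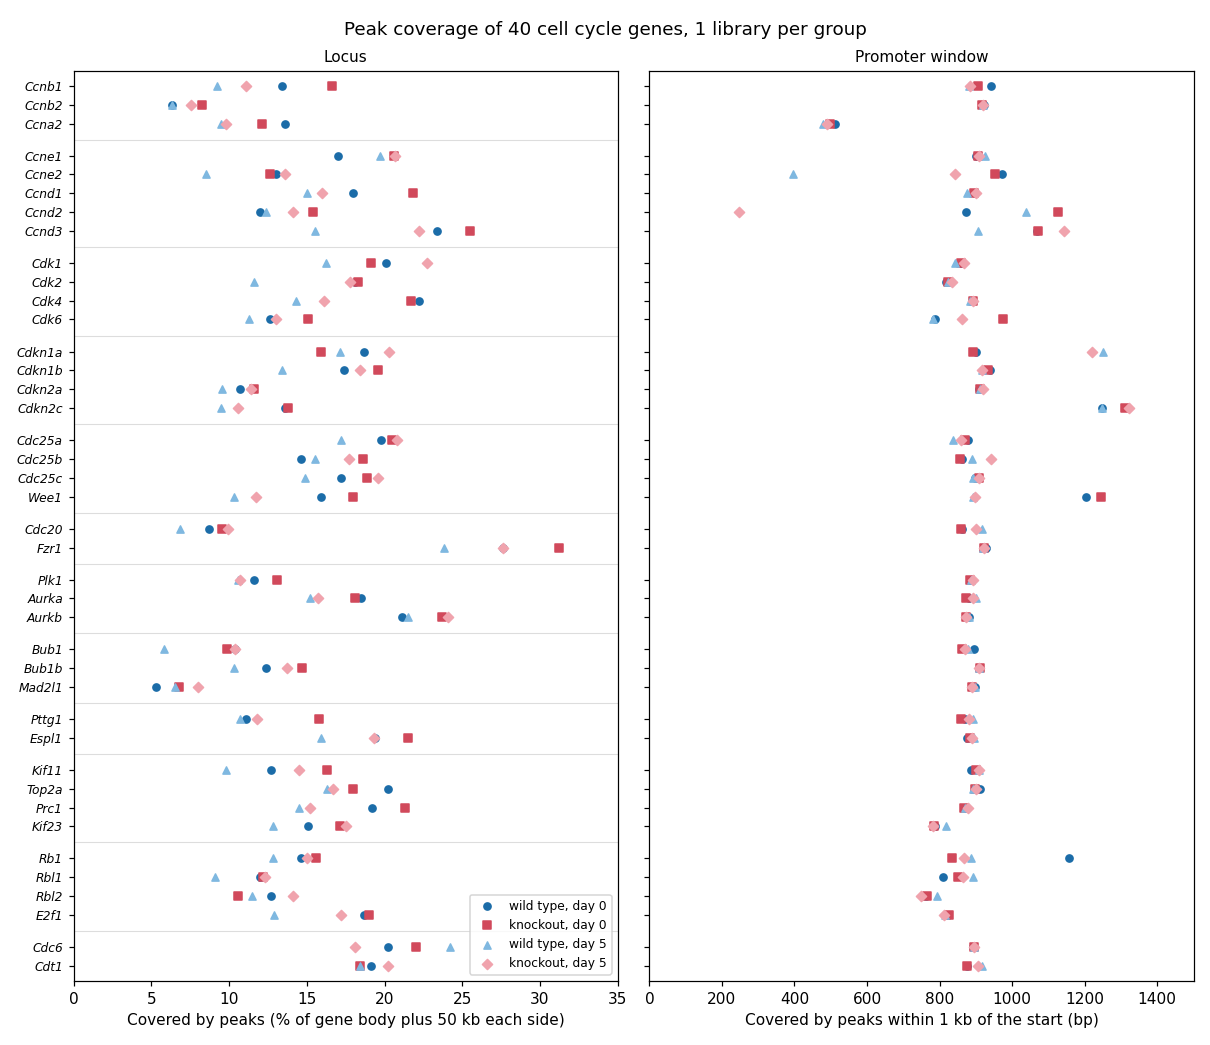
The left panel plots the percent of each locus covered by peaks and the right panel the bp covered within 1 kb of the start, for 40 genes grouped by role, with 1 point per library and no error bars because each group has 1 library. Locus values spread between libraries, with Fzr1 the highest at 31.2% in knockout at day 0, while most promoter values fall on top of each other, apart from Ccne2, Ccnd2, Wee1, Cdkn1a and Rb1.

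Around the promoters the loci were more densely covered than most. The median member had 15.5, 17.5, 12.8 and 15.4% of its locus covered, against 11.5, 12.8, 9.75 and 12.4% for all genes, and 34, 31, 30 and 28 of the 40 members were above the median gene. Fzr1, the late mitotic and G1 coactivator of the anaphase-promoting complex, was the most covered member in 3 libraries, with 27.6, 31.2 and 27.6% (wild type day 0, knockout day 0, knockout day 5), and Cdc6 in wild type at day 5, with 24.2%. The least covered were Mad2l1 at day 0 (5.29 and 6.75%), Bub1 in wild type at day 5 (5.78%) and Ccnb2 in knockout at day 5 (7.53%). Mad2l1 encodes Mad2 of the spindle checkpoint.

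To compare libraries of unequal list length, the log2 ratio of covered bp, with 500 bp added to each, was centred on the median ratio over all genes. For the knockout relative to the wild type, the medians subtracted were 0.11 at day 0 and 0.31 at day 5. For day 5 relative to day 0 they were −0.23 in wild-type cells and −0.03 in knockout cells. A locus was called past 1.5-fold (0.58 on the log2 scale). All ratios below are on this centred scale unless raw bp are given. Of the 4 comparisons, any 2 that hold a library in common share its errors, so their values are set side by side only.

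At day 0, the knockout and the wild type had 0 of 40 members past 1.5-fold in either direction. Over all genes, 4.61% were higher and 3.11% lower, and 2.96% either way among the 16774 loci with covered bp in the members' range. The member median was 0.02, with 23 members above the median locus. The highest were Pttg1, Ccnb2 and Kif11. Pttg1, which encodes securin, the inhibitor of separase, had 11940 covered bp in wild type and 16955 in knockout (0.38). Ccnb2 had 7186 and 9391 (0.25), and Kif11, the kinesin that pushes spindle poles apart, had 18435 and 23655 (0.24). The lowest were Rbl2, Cdkn1a and Top2a. Rbl2, which encodes the retinoblastoma-like protein p130 of the DREAM complex, had 19562 and 16375 bp (−0.36). Cdkn1a had 20563 and 17443 (−0.34), and Top2a, the topoisomerase that untangles chromosomes, had 26506 and 23613 (−0.27). With 10 kb on each side in place of 50 kb, Pttg1 (−0.06), Ccnb2 (−0.06) and Top2a (0.05) changed sign. Ccna2, Bub1 and Rbl2 (−0.63) were then called lower, where 4.07% of all genes were, and Mad2l1 higher, where 7.45% were. In its gene body alone Top2a was at −0.56.

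At day 5, 1 member was lower in the knockout past 1.5-fold and 0 were higher. Over all genes, 7.91% were higher and 4.28% lower, and 5.62% either way among loci in the members' range of coverage. The member was Cdc6 (chr11:98907709-98923942), with 23483, 25606, 28172 and 20993 covered bp and a ratio of −0.72. Both day 5 libraries lay outside the pair of day 0 values, the wild type above and the knockout below. The highest ratios were those of Bub1 (0.50), Ccne2 (0.33) and Cdk2 (0.28). Bub1 had 7609 bp in wild type and 13689 in knockout, Ccne2 9767 and 15497, and Cdk2, the kinase partner of cyclin E, 12473 and 19052. After Cdc6, the lowest were Plk1 (−0.29), with 11749 and 11869 bp, and Top2a (−0.27), with 21334 and 21898. At Plk1 and Top2a the covered length of the whole locus was nearly equal in the 2 libraries, while the median locus was larger in the knockout. The member median was −0.07 and 13 of 40 members were above the median locus. With 10 kb on each side, Bub1 (−0.24) and Top2a (0.37) changed sign, and 5 members were called lower: Cdc6 (−0.79), Plk1 (−0.74), Ccnb1, Cdkn2c and Pttg1, where 6.99% of all genes were. Cdc6's difference in covered bp lay outside its promoter, whose peak was the same in all libraries.

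The Cdc6 window held 39 joined regions (peaks of any library merged where they overlapped by 1 bp), of which 19 were in all 4 libraries. Of the others, 5 were in wild type at day 5 alone, 2 of them in Wipf2 and 3 in Rara, the neighbouring genes, and none was in knockout at day 5 alone. A further 3 were in all libraries except knockout at day 5, and 1 of these lay inside Cdc6 (chr11:98918014-98918830). In a window cut at the neighbouring genes the covered bp were 5948, 6152, 6028 and 5148, and the day 5 ratio was −0.52, not past 1.5-fold. This ratio is centred on the median of the loci with 50 kb flanks (0.31), which are longer windows. For gene bodies alone that median was 0.12. That window was chosen after the values were seen.

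Between day 0 and day 5 in the wild type, 1 member was lower past 1.5-fold and 0 were higher. Over all genes, 10.2% were higher and 6.23% lower, and 9.86% either way among loci in the members' range. The member was Bub1 (chr2:127800197-127831859), with 13737, 13023, 7609 and 13689 covered bp and a ratio of −0.58, at the threshold. By number of peaks, or with a pseudocount of 2000 bp, it was not past 1.5-fold (−0.53 and −0.51), nor was it with 10 kb on each side (−0.42). Wild type at day 5 was low and the other 3 libraries lay close together. Its 24 regions included 7 in all 4 libraries. Cut at the neighbouring genes, the window held 4285, 2117, 2574 and 2679 bp, with a ratio of −0.41, and there wild type at day 0 was the highest library. That ratio is centred on the median of the longer loci with 50 kb flanks (−0.23). For gene bodies alone the median was −0.06, so the ratio depends on the centring. Cdk2, with 19435 bp at day 0 and 12473 at day 5, and Cdk4, a kinase of G1, with 23065 and 14887, followed (both −0.39). The highest were Mad2l1, with 5598 and 6906 bp (0.51), Cdc6, with 23483 and 28172 (0.48), and Ccne1, cyclin E1, with 18583 and 21528 (0.43). With 10 kb on each side, Ccne1 (−0.12) and Cdk4 (0.16) changed sign. The member median was −0.03, and 18 of 40 members were above the median locus. This comparison and that of the genotypes at day 5 share the wild-type day 5 library, so the values of Bub1 and Cdc6 in them are not independent.

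Between day 0 and day 5 in the knockout, 0 of 40 members were past 1.5-fold in either direction. Over all genes, 7.71% were higher and 2.45% lower, and 3.82% either way among loci in the members' range. Wee1 (chr7:110122059-110143299) was the lowest, with 21811 covered bp at day 0 and 14172 at day 5 (−0.57), next to the threshold. Ccnb1, which encodes cyclin B1, had 17857 and 11924 (−0.53), and Prc1, which bundles midzone microtubules in anaphase, had 25975 and 18492 (−0.45). The highest were Rbl2, with 16375 and 21750 bp (0.43), Cdkn1a, with 17443 and 22311 (0.38), and Cdk1, with 22471 and 26774 (0.28). The member median was −0.07, and 15 of 40 members were above the median locus. In the wild type the same 6 genes had ratios of −0.38 (Wee1), −0.29 (Ccnb1), −0.16 (Prc1), 0.09 (Rbl2), 0.10 (Cdkn1a) and −0.07 (Cdk1). The sign was the same in both genotypes for all of these except Cdk1. Because the 6 genes were picked as extremes of the knockout time course, and no share of all genes is given, this is not read as agreement. With 10 kb on each side, 4 members were called lower in the knockout at day 5: Ccnb1 (−1.65), Wee1 (−1.47), Prc1 (−0.66) and Cdkn2c, where 7.16% of all genes were, and Rbl2 (0.85) and Cdk1 (0.60) were called higher, where 8.97% were. With the 189571 widest peaks of each list, the knockout ratio of Cdk1 was −0.01, and that of Rbl2 was past the threshold.

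**Figure D2:**
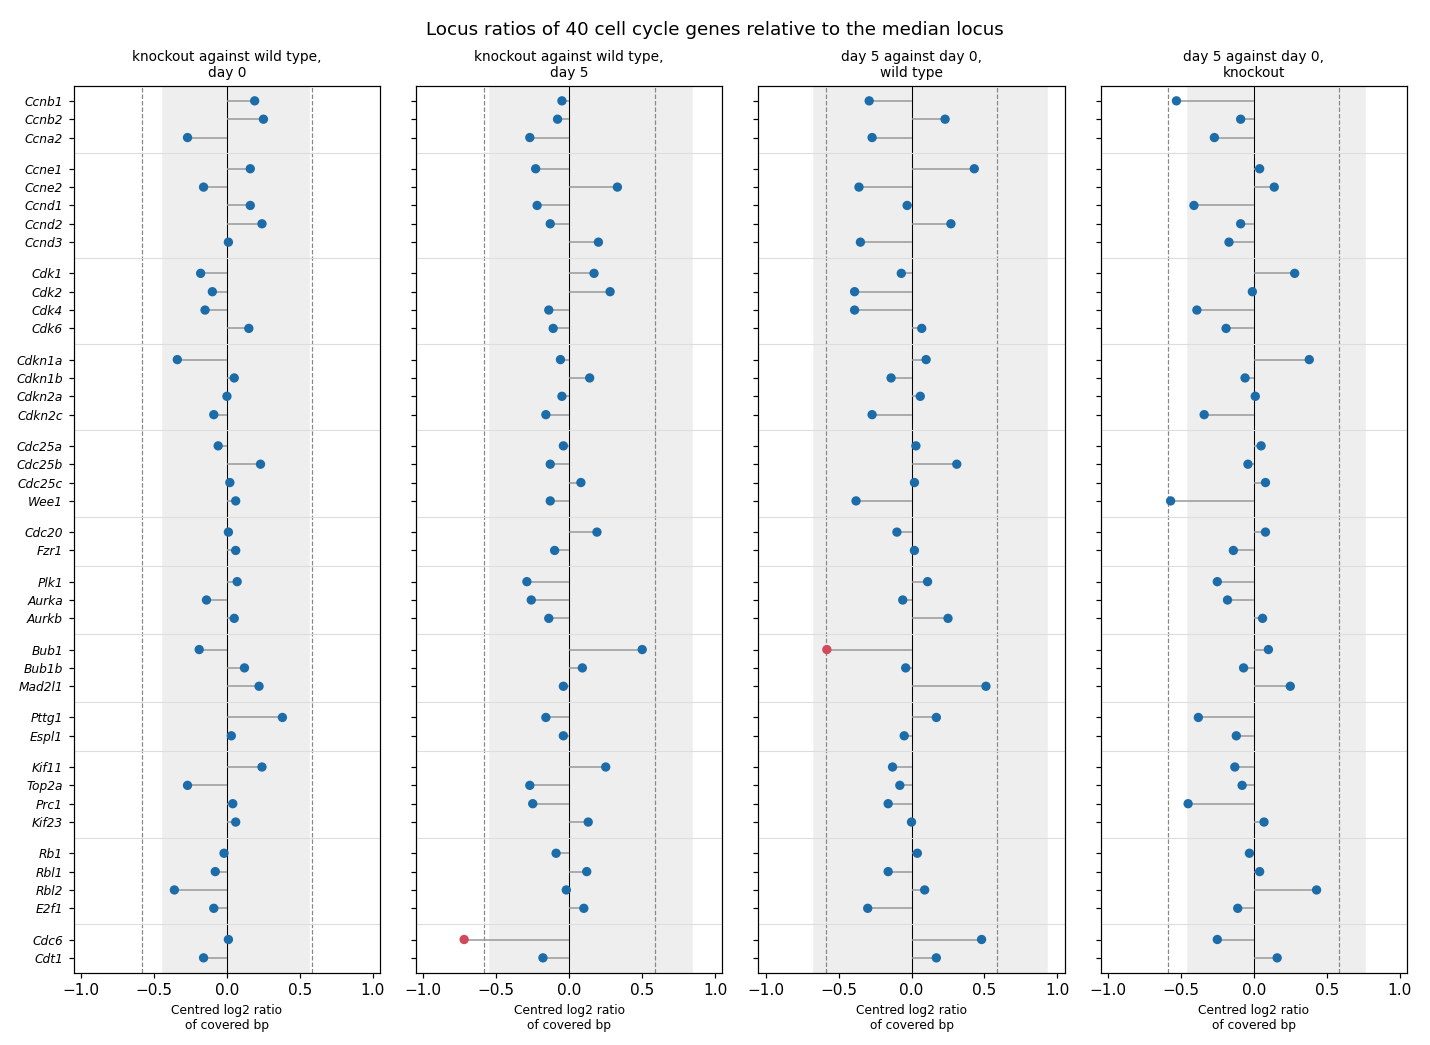
Each panel plots 1 comparison and each point 1 gene, with the centred log2 ratio of covered bp on the x axis, dashed lines at 1.5-fold and a grey band from the 5th to the 95th percentile of all genes. Red points mark Cdc6 (−0.72, day 5 genotypes) and Bub1 (−0.58, wild-type time course), and the other 38 genes lie inside the dashed lines in every panel.

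Grouped by role, the members did not move as blocks past 1.5-fold. The 3 mitotic cyclin loci, Ccnb1, Ccnb2 and Ccna2, had medians of 0.19, −0.08, −0.27 and −0.27 in the 4 comparisons in the order above. Ccna2, with 14681, 13107, 10251 and 10566 bp, was at −0.27 in each. Among the 5 G1 cyclins the medians were 0.16, −0.13, −0.03 and −0.09, and Ccnd3 was the longest locus of them, with 45477, 49572, 30230 and 43132 bp. Ccnd1, induced by growth factors, had 19804, 23978, 16503 and 17600. Ccnd2 had 15290, 19605, 15807 and 17970. The D-type loci were thus larger in the knockout than in the wild type on both days in raw bp, as was the median locus of all genes.

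The kinases Cdk1, Cdk2, Cdk4 and Cdk6 had medians of −0.12, 0.03, −0.23 and −0.10. Cdk4, with 23065, 22513, 14887 and 16719 bp, was lower at day 5 by the same ratio in both genotypes (−0.39 and −0.39). Cdk6, its partner kinase in G1, had 36569, 43880, 32854 and 37633. Among the inhibitors the medians were −0.05, −0.06, −0.04 and −0.03. Cdkn1b (p27) had 18332, 20609, 14068 and 19292 bp, Cdkn2a (p16 and p19Arf) 12886, 13941, 11459 and 13743, and Cdkn2c 14376, 14598, 10062 and 11174. Cdkn2a stayed within 0.06 of the median locus in all comparisons.

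Of the Cdc25 phosphatases, which activate CDKs, Cdc25a and Cdc25c stayed near the median locus with 50 kb flanks, and Cdc25b moved more. Cdc25a had 23401, 24270, 20322 and 24607 bp, with ratios from −0.06 to 0.05. Cdc25c had 20439, 22430, 17647 and 23201, with ratios from 0.02 to 0.08. Cdc25b had 16345, 20836, 17397 and 19787 bp, with ratios of 0.23, −0.13, 0.31 and −0.04. Wee1, which they oppose, had 19308, 21811, 12520 and 14172 bp, and both day 0 libraries were above both day 5 libraries. Of the coactivators, Cdc20 had 9078, 9937, 7158 and 10341 bp and Fzr1 30821, 34795, 26567 and 30776, and no ratio of either was past 0.19. The mitotic kinases Plk1, Aurka and Aurkb had medians of 0.05, −0.26, 0.11 and −0.18. Aurka, which matures spindle poles, had 21247, 20811, 17383 and 17985 bp, and Aurkb, the kinase of the chromosomal passenger complex, had 22376, 25088, 22775 and 25608.

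In the spindle checkpoint, which delays anaphase until kinetochores are attached, the medians were 0.12, 0.09, −0.04 and 0.10. Bub1b, which encodes BubR1, had 17807, 21049, 14732 and 19609 bp and stayed between −0.07 and 0.12. Mad2l1 had 5598, 7148, 6906 and 8434 and was higher at day 5 in both genotypes (0.51 and 0.25). For sister separation, Espl1 (separase) had ratios from −0.12 to 0.03, with 24909, 27570, 20427 and 24742 bp, while Pttg1 was high in knockout at day 0 alone, with 11940, 16955, 11423 and 12675. Kif11 had 18435, 23655, 14248 and 21156 bp and was above the wild type on both days (0.24 and 0.25). Top2a, with 26506, 23613, 21334 and 21898, was below the median locus on both days (−0.27 and −0.27). Kif23, a midzone kinesin of cytokinesis, had 19592, 22093, 16622 and 22715 bp and was at most 0.13 from the median locus.

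The retinoblastoma family and E2f1 act together at G1/S. Their medians were −0.09, 0.04, −0.06 and 0.00, and all 4 were below the median locus in the knockout at day 0. Rb1 had 34012, 36301, 29914 and 34859 bp, Rbl1 (p107) 18964, 19361, 14368 and 19435, Rbl2 19562, 16375, 17745 and 21750, and E2f1 20685, 20969, 14206 and 19037. Knockout at day 0 was the lowest library at Rbl2, whereas wild type at day 5 was the lowest at the other 3. Of the licensing factors, Cdt1, which loads the helicase with Cdc6, had 20116, 19393, 19311 and 21197 bp and ratios of −0.16, −0.18, 0.17 and 0.16.

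Inside the gene bodies alone, where fewer peaks carry each value, more members were past 1.5-fold. At day 0, 3 were higher in the knockout (Cdk1, Mad2l1 and Prc1; 11.5% of all genes were) and 4 lower (Cdkn2c, Bub1, Rbl2 and Cdt1; 5.67%). At day 5, 2 were higher (Cdk1 and Cdc25a; 17.8%) and 5 lower (Ccnb1, Cdkn2c, Fzr1, Aurka and Pttg1; 6.46%). From day 0 to day 5 in the wild type, 2 were higher (Ccnd2 and Mad2l1; 11.1%) and 6 lower (Wee1, Bub1, Top2a, Kif23, Rbl1 and Cdt1; 19.2%). In the knockout 2 were higher (Aurkb and Rbl2; 10.1%) and 9 lower (Ccnb1, Cdc25b, Wee1, Fzr1, Aurka, Pttg1, Top2a, Prc1 and Kif23; 11.3%). Between the genotypes, Cdk1 was called higher and Cdkn2c lower on both days. Between the days, Wee1, Top2a and Kif23 were called lower in both genotypes, 3 of the 6 lower calls of the wild type and 3 of the 9 of the knockout. The share of all genes called in both comparisons is not given here, so these overlaps are not read as particular to the members.

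Wee1 had the largest change of this kind. Its body held 5, 6, 1 and 1 peaks, with 3410, 4316, 304 and 301 covered bp, and the ratios of day 5 to day 0 were −2.23 (wild type) and −2.59 (knockout). At day 5 the promoter peak was the only one left in the gene. The 4 sites present in both day 0 libraries and in no day 5 library were chr7:110122728-110123431, chr7:110124881-110125645, chr7:110128267-110129212 and chr7:110131983-110132939, centred 1.0, 3.2, 6.7 and 10.4 kb from the accessible gene end. Another 4 such sites lay outside the gene, so that 8 of the 32 regions at Wee1 were in both day 0 libraries alone and none in both day 5 libraries alone. Only Ccnd3, with 64 regions, had as many, and the median member had 2. At Ccnb1, 4 of 26 regions had this pattern, and 3 of them lay 1.2, 2.7 and 4.1 kb from the transcript start, next to the promoter peak. These counts were looked at after the locus values were known.

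In other gene bodies the changes were smaller or rested on 1 library. Top2a held 2064, 1280, 399 and 373 bp in 3, 2, 1 and 1 peaks, and a site 3.1 kb inside the gene (chr11:99020610-99021540) was in both day 0 libraries and in neither day 5 library. Kif23 held 1409, 1039, 473 and 431 bp in 2, 2, 1 and 1 peaks, but its second peak at day 0 was at a different place in each genotype. Cdk1 held 1089, 2063, 1149 and 2895 bp in 2, 3, 2 and 4 peaks, and no region inside it was in both knockout libraries alone. Cdkn2c held 2025, 1075, 1893 and 1053 bp, and 1 site, chr4:109660922-109661809, was present in both wild-type libraries and in neither knockout library. Rbl2 held 5713, 2722, 5382 and 8918 bp in 7, 5, 7 and 11 peaks, lowest in knockout at day 0 and highest in knockout at day 5. Prc1 held 2961, 6766, 3139 and 3046 bp in 4, 8, 4 and 4 peaks, high in knockout at day 0 alone. All 8 regions inside the Prc1 body also lie inside Rccd1, so none of them can be given to Prc1 alone.

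**Figure D3:**
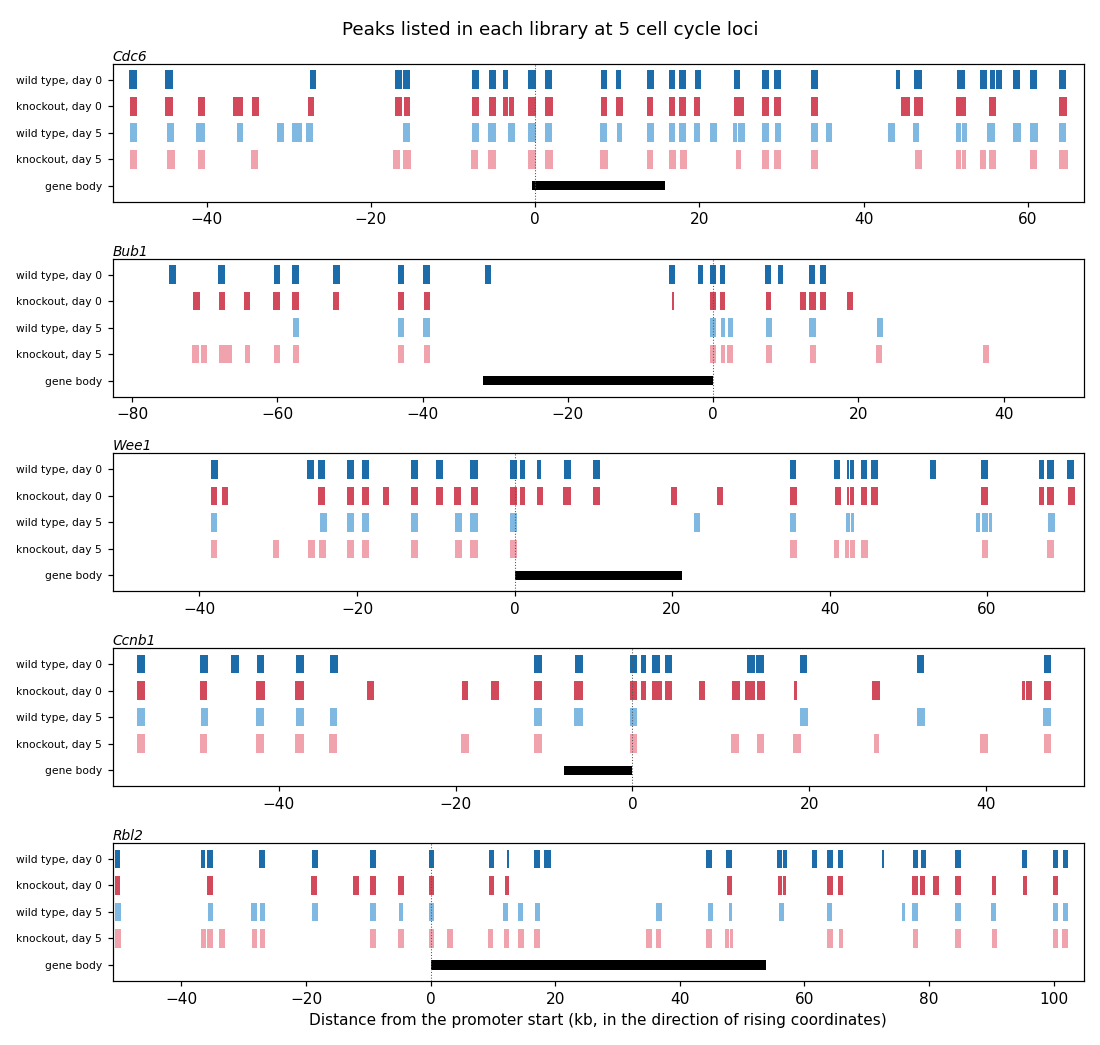
Each panel maps the peaks of 1 locus by distance from the promoter start in kb, with 1 row of bars per library and the gene body as a black bar. The 4 peaks inside Wee1 that follow its promoter peak at day 0 in both genotypes have no counterpart at day 5, and at Cdc6 the peaks of wild type at day 5 alone lie outside the gene body.

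At the level of single sites, the 40 loci held 1273 of the 328524 joined regions of the genome. Of these, 568 (44.6%, exact 95% interval 41.9 to 47.4) were in all 4 libraries, against 33.8% of all regions. Regions in both knockout libraries and no wild-type library numbered 33 (2.59%, 1.79 to 3.62), against 3.68%, and those in both wild-type libraries and no knockout library numbered 7 (0.550%, 0.221 to 1.13), against 0.854%. This order turned when the 189571 widest peaks of each list were used: 1.33% of member regions were then in both knockout libraries alone and 2.83% in both wild-type libraries alone, against 2.83 and 2.80% of all regions. Regions in both day 0 libraries and no day 5 library numbered 92 (7.23%, 5.87 to 8.79), against 5.73%, and those in both day 5 libraries and no day 0 library 37 (2.91%, 2.05 to 3.98), against 5.01%. At these loci 92 sites of day 0 stood beside 37 of day 5, and over the genome 18809 beside 16474; the intervals cover counting error only. Without wild type at day 5, 57.0% of member regions were in all 3 remaining libraries, against 47.0% of all regions, and 5.28% were in both knockout libraries and not in wild type at day 0, against 7.51%.

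Away from any promoter, where 1098 of the member regions lay, 38.3% (35.5 to 41.3) were in all 4 libraries, against 32.5% of regions within 50 kb of any protein-coding gene and away from promoters. The day 0 pattern was at 7.92% (6.39 to 9.68), against 6.26%, and the day 5 pattern at 3.01% (2.08 to 4.20), against 4.73%. Sites in wild type at day 5 alone made up 5.28%, against 8.32%, and sites in knockout at day 5 alone 6.83%, against 9.97%. In wild type and knockout at day 0 alone the shares were 5.56 and 9.11%, against 5.18 and 8.41%. At promoters, 147 of 175 member regions (84.0%, 77.7 to 89.1) were in all 4 libraries, against 77.7% of all promoter regions. No member region at a promoter was in both knockout libraries alone or in both wild-type libraries alone (0 of 175 each, which allows up to 2.09%). Over all promoter regions these shares were 1.03 and 0.360%, both within that limit.

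**Figure D4:**
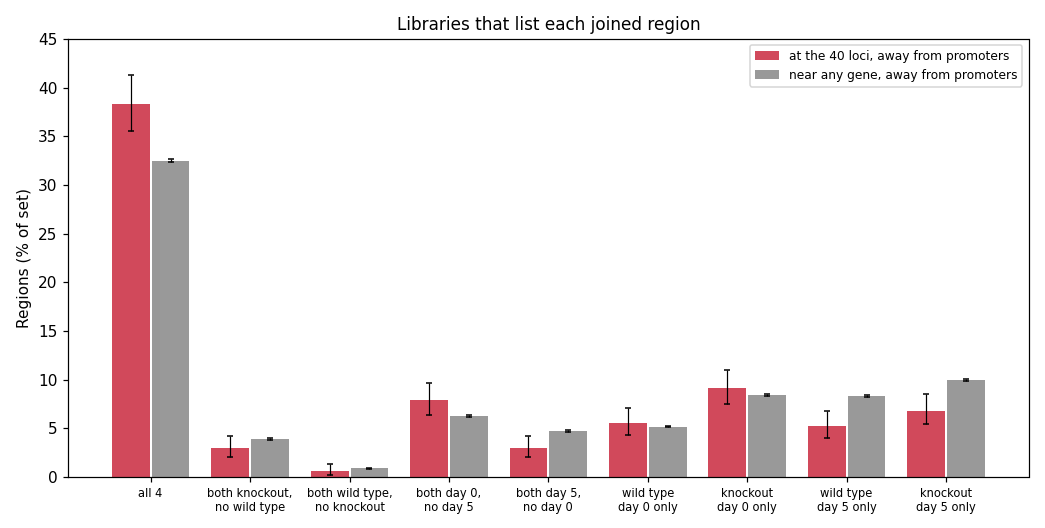
Bars give the percent of joined regions away from promoters with each pattern of libraries, red for the 40 loci and grey for regions within 50 kb of any protein-coding gene, and error bars are exact 95% binomial intervals. The red bar is taller for regions in all 4 libraries (38.3 against 32.5%) and shorter for both day 5 libraries alone (3.01 against 4.73%).

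The widest sites of each pattern were the following. In both knockout libraries alone they were chr9:61988274-61989659, inside Paqr5 near Kif23, chr8:122560290-122561646, 6.37 kb from Cdt1, and chr18:34770302-34771579, inside Fam53c near Cdc25c. In both wild-type libraries alone they were chr8:122619784-122621072, inside Pabpn1l near Cdt1, chr7:38068338-38069322, 38.2 kb from the Ccne1 start, and chr11:98966344-98967322, inside Rara between Cdc6 and Top2a. In both day 0 libraries alone they were chr2:172367145-172368492, inside Aurka and 2.08 kb from its start, chr7:144945864-144947012, 6.03 kb from Ccnd1, and chr13:100788643-100789788, 2.16 kb from the Ccnb1 start. In both day 5 libraries alone they were chr2:131205469-131206929, 18.5 kb from the Cdc25b start, chr11:99055362-99056488, 31.2 kb from the Top2a start, and chr11:69003269-69004272, inside Pfas near Aurkb. Of these 12 sites, the Aurka site was the only one inside a member gene. Of the 40 members, 21 had no region in both knockout libraries alone, and no member had more than 3. All 8 members with a region in both wild-type libraries alone (Ccnb1, Ccne1, Cdkn2c, Cdc25a, Aurka, Top2a, Cdc6 and Cdt1) had 1 each.

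The same measure was read for 106 other genes of the cell cycle machinery, among them subunits of the anaphase-promoting complex, mitotic exit phosphatases, kinetochore proteins, kinesins, condensin, cohesin and origin factors. At day 0, when 4.61% of all genes were higher and 3.11% lower, 1 was higher in the knockout past 1.5-fold (the X-linked cohesin gene Smc1a, 0.61) and 1 lower (Anapc10, a subunit of the anaphase-promoting complex, −0.61). At day 5 (7.91 and 4.28%), 2 were higher, Smc1a (0.84) and the condensin gene Ncapg, and 0 lower. From day 0 to day 5 (10.2 and 6.23%), the wild type had 2 higher, Kif18a and the origin gene Orc4 (1.38), and 4 lower, Anapc10, Mastl, Ncapg (−0.82) and Dbf4. The knockout (7.71 and 2.45%) had 2 higher, Kif18a and Smc1a (0.75), and 0 lower. Kif18a, a kinesin that aligns chromosomes, was called higher at day 5 in both genotypes. Their medians were −0.03, 0.00, −0.12 and −0.05, beside 0.02, −0.07, −0.03 and −0.07 for the 40 members. A promoter peak in all 4 libraries was found at 104 of the 106, against 69.9% of all genes, the exceptions being Kif14 and Rad21. Among genes with a promoter peak in any library the share was 89.2%. At Cdc14a the ratios were 0.32, 0.51, −0.12 and 0.07, and at Cdc14b 0.39, 0.22, 0.25 and 0.08, none past 1.5-fold.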

How the data were processed

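Each of the deposited files lists the peaks of 1 library by chromosome, start and end (3 columns), and holds no other value. They were made library by library with cellranger-arc 2.0.0 against mm10, per the file headers; Scanpy 1.7.2 is also named, per the submitters' processing notes. RNA from the same nuclei was not used here.

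Gene ends and promoter sequences came from RefSeq tables of GRCm38.p6, whose chromosome coordinates are those of mm10. These tables gave transcript starts for 17491 of the 21883 genes (32 of 40 members). For the others the gene end with more covered bases within 1 kb was used, which may be a 3′ end. Covered bp, joined regions and motif matches were computed with Python 3.11.15, numpy 2.4.6, pandas 2.3.3 and scipy 1.17.1, and the overlap and ratio code was tested on simulated data. Shares carry exact (Clopper-Pearson) intervals. No columns of other series were present.

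With 1 library per group no comparison of 2 groups could be tested, and values are descriptions. All 40 members are named, and in each comparison the called members or the 3 highest and 3 lowest are given in bp, with the 3 widest regions of each pattern. The members were taken by function, but they, the list of other cell cycle genes and the marker lists were chosen with earlier results of these data known. Alternatives were other flanks, pseudocounts, thresholds, peak sets and promoter windows.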

Additional observations from a re-analysis of the deposited data

Results flagged for a closer look

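Bub1 was flagged because its locus moved opposite ways over the 5 days in the 2 genotypes: the ratio of day 5 to day 0 was −0.58 in the wild type and 0.10 in the knockout, a difference of 0.68 on the log2 scale. Its covered bp were 13737 and 7609 in the wild type and 13023 and 13689 in the knockout. Cdc6 was flagged for the reverse, with 0.48 in the wild type and −0.25 in the knockout, a difference of −0.74 on the log2 scale. Its covered bp were 23483 and 28172 in the wild type and 25606 and 20993 in the knockout. Neither difference was tested, since each rests on 4 libraries without replicates, and both depend on wild type at day 5.

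Y-linked genes were flagged because they lie outside the comparisons of cell cycle genes: 3 of 4 (Eif2s3y, Uty and Ddx3y) had a promoter peak in wild type at day 5, with 915, 888 and 792 bp covered within 1 kb, and none did in the other 3 libraries.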

How the results depend on the processing

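A promoter peak was counted at 35 (start base alone) to 40 members per library over the alternatives, where the share of all genes ran from 65.0 to 76.5%; any covered base counts, so this measure is close to saturated. Counts of loci past 1.5-fold depended on the window. With 10 kb on each side, 1 member was higher and 3 lower at day 0 (7.45 and 4.07% of all genes), 1 higher and 5 lower at day 5 (11.2 and 6.99%), 2 higher and 3 lower over time in the wild type (12.3 and 10.8%), and 2 higher and 4 lower over time in the knockout (8.97 and 7.16%). In the gene body alone the counts were 3 and 4 (11.5 and 5.67% of all genes), 2 and 5 (17.8 and 6.46%), 2 and 6 (11.1 and 19.2%), and 2 and 9 (10.1 and 11.3%). With equal numbers of the widest peaks, 1 was lower at day 0 (Rbl2; 3.52% of all genes), 2 were higher over time in the wild type (Mad2l1 and Cdc6; 10.2%), and in the knockout 1 was higher (Rbl2; 8.07%) and 1 lower (Cdk4; 3.28%). The Bub1 call was lost (0 lower) by number of peaks (−0.53) and with a pseudocount of 2000 bp (−0.51). It was also lost with autosomes only, with a minimum mean of 2000 bp (both −0.58, at the threshold) and at a 2-fold threshold. With 10 kb Bub1 (−0.42) was not among the 3 lower members. The 2-fold threshold also left 0 lower between the genotypes at day 5, where 1.44% of all genes were. By number of peaks, or with a pseudocount of 100 bp, 1 member (Wee1) was lower over time in the knockout. Under the main settings 2.45% of all genes were lower there, so 1 call among 40 is not read as a result about the members.

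Of 24 named locus ratios, 10 changed sign under some alternative, of which 1 (Cdk1, knockout over time) did so in the same window. Member medians ran from −0.02 to 0.03, −0.20 to −0.06, −0.03 to 0.03 and −0.13 to −0.01 in the 4 comparisons.

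With the widest peaks, the share of member regions in all 4 libraries was 39.6%, in both knockout libraries alone 1.33% and in both wild-type libraries alone 2.83%. With 10 kb, the share in both knockout libraries alone was 1.65% and in both day 0 libraries alone 8.85%. Without wild type at day 5, an alternative chosen after seeing the data, as were the windows cut at neighbouring genes, the shares were 57.0% in all 3 libraries and 5.28% in both knockout libraries alone. Apart from the windows, whose construction changes the sites counted, the cause of these shifts was not tested. No paired analysis was possible because each group has 1 library, so that the groups of a comparison share fewer than 2 replicate numbers, and no replicate could be left out. Depth is unknown, so an absent peak may lie below the calling threshold of a library.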
